A study of Mus musculus with 16 samples.

Results

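The urea cycle genes are the 8 rows of the deposited table with the symbols Cps1, Otc, Ass1, Asl, Arg1, Arg2, Nags and Slc25a15, out of 25054 rows, and they were chosen by name and not by any measured value. The cycle turns ammonia from amino acid breakdown into urea, and its full set of enzymes is found in hepatocytes, above all those around the portal vein. Its first steps take place in the mitochondrion and its later steps in the cytosol, and around birth the liver begins to take over ammonia disposal from the placenta. Many other tissues, the lung among them, hold part of the set, where Ass1 and Asl remake arginine and the arginases compete with nitric oxide synthases for it.

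RNA was sequenced from newborn C57BL/6J background pups of Man1a2+/- parents that carry the null allele Man1a2tm1.1Ahe, in which exon 2 of this mannosidase gene is deleted. The pup groups were live wild type (WT), live heterozygous (Het, Man1a2+/-), dead heterozygous and dead homozygous null (Null, Man1a2-/-), so that state and genotype are only separated among heterozygotes. Both parents were fed N-acetyl cysteine (NAC, an antioxidant that refills glutathione stores), at up to 1 g/kg, or water (placebo) from before mating until delivery. Pups were watched every 8 h up to 24 h, and organs were taken at death or, from living pups, at 24 h, so state, age and time after death cannot be told apart. Each of the 16 libraries pooled 3 experiments, or 2 for dead Het pups, so pools and not pups are the units. There is 1 library for each pup group, treatment and labelled tissue. The p-values therefore rest mostly on how far pools depart from a model with pup group and treatment, and hardly on repeats of a condition.

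Libraries were read by marker content as well as by label. A library was called lung-content with at least 1000 CPM (counts scaled to a common library total) of Sftpc, the surfactant protein C gene of alveolar type 2 cells, and under 1000 of Alb, and liver-content with at least 50000 CPM of Alb, the albumin gene of hepatocytes. This gave 7 lung-content libraries, 8 liver-content libraries and 1 mixed library, the one labelled dead Null placebo lung. Within a content, only dead Null NAC pups, in liver-content libraries, had more than 1 library. Of the 16, 9 did not hold the content that their tissue label names, and each kept its labelled pup group and treatment here, which these markers cannot check. Lung-content libraries held 7236865 to 11808823 counts and liver-content libraries 14115802 to 16107749. Man1a2 had 34.3 to 60.3 CPM in the 4 dead Null libraries and 29.7 to 75.4 in the 4 live WT libraries, and counts by gene do not separate exon 2, so they do not check the genotype. The 12 hepatocyte markers summed to 172402 to 293979 CPM in liver-content libraries and 186 to 1146 in lung-content libraries. All levels below are CPM after TMM scaling over the 16 libraries, a method that sets libraries on a common scale from the bulk of their genes. In bulk RNA, fewer cells of a type and less RNA per cell cannot be told apart.

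On GRCm38, in order of the pathway, Nags (N-acetylglutamate synthase, which makes the activator of Cps1) lies on chromosome 11 from 102145513 to 102149477, and Cps1 (carbamoyl phosphate synthetase 1, the entry enzyme) on chromosome 1 from 67123026 to 67231259. Otc (ornithine transcarbamylase) is on X from 10252305 to 10321024, and Slc25a15 (the mitochondrial ornithine and citrulline carrier) on chromosome 8 from 22375551 to 22398597. Ass1 (argininosuccinate synthase) is on chromosome 2 from 31470207 to 31520672, and Asl (argininosuccinate lyase) on chromosome 5 from 130011258 to 130029247. Arg1, the cytosolic liver arginase that releases urea, is on chromosome 10 from 24915221 to 24927484, and Arg2, the mitochondrial arginase found mostly outside liver, on chromosome 12 from 79130777 to 79156301. Arg2 shares 285 exon bases with Vti1b and 116 with Gm48780, and Nags 443 with Gm11586, in each case on the other strand, and whether strand was used in counting is not given in the sources used here.

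The Ass1 row cannot be read alone. Gm5424, a processed pseudogene on chromosome 10 from 62071123 to 62072362, is an intronless copy of Ass1. Its 1240 bases aligned without a gap to positions 203 to 1442 of the annotated Ass1 transcript of 1696 bases, which has its coding part from 203 to 1438, and 1234 bases (99.5%) were identical. Of all stretches of this transcript as long as a read, 38.9% at 100 bases and 29.3% at 150 bases occur unchanged in Gm5424, and a read from such a stretch cannot be placed by its sequence. All 6 differences lie in the coding part, and 3 of them are shown with 20 bases on each side, from the GENCODE M21 transcripts on GRCm38, with the differing base in capitals, because only reads across such bases or outside the copied part tell the rows apart. Written as the Ass1 base, its position from the first base of the Ass1 transcript and the Gm5424 base, they are T601C, G858C and T1213C.
Ass1 chr2:31486504-31486544 (+): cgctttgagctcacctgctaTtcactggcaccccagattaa
Gm5424 chr10:62071501-62071541 (+): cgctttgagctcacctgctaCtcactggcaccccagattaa
Ass1 chr2:31498185-31498225 (+): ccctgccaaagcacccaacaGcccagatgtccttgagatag
Gm5424 chr10:62071758-62071798 (+): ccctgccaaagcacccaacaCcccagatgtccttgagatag
Ass1 chr2:31514699-31514739 (+): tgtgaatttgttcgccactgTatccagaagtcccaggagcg
Gm5424 chr10:62072113-62072153 (+): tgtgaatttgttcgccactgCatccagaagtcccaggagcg

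In the deposited counts, the Ass1 row held only 3.84 to 3.96% of the Ass1 and Gm5424 counts in the 4 liver-content libraries of live pups and 5.06 to 9.20% in the 4 of dead pups. In lung-content libraries it held 0 to 25.8%, and in the mixed library 3.21%. Values are therefore given for Ass1, for Gm5424 and, where it matters, for their sum, and how reads were divided between the rows is not given in the sources used here.

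In liver-content libraries 7 of the 8 members were well expressed, and Cps1 stood 55th of 25054 rows by mean level, Arg1 110th and Asl 398th. Levels of different genes were compared per kilobase of the merged exons of all annotated transcripts, which makes the comparison rough. For Ass1 these exons hold 2414 bases, against 1696 in the transcript aligned above. By this measure Arg1 (median 410 CPM per kb, range 252 to 780, n = 8) and Cps1 (384, 216 to 471) were the highest members and their ranges overlapped. Asl came next at 58.8 (26.4 to 130) and stood behind both in all 8 libraries. Slc25a15 at 31.2, Ass1 at 30.3 and Otc at 29.3 followed with overlapping ranges, so that their order was not fixed. Counting Gm5424 as Ass1 transcript would put Ass1 at 505 (312 to 1171), in the range of Arg1 and Cps1. Nags had a lower median of 12.7 (10.4 to 18.9), with a range that overlapped those of Slc25a15, Ass1 and Otc, and it was above Otc in 2 of the 8 libraries. Arg2 was last in all 8 libraries at 0.758 (0.326 to 2.01).

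Nags had 34.0 and 44.3 CPM in the live WT and live Het NAC libraries labelled liver, 36.2 and 32.2 in the live WT and live Het placebo libraries labelled lung, 53.7 and 35.7 in dead Het pups with placebo and NAC, and 38.2 and 29.6 in the pair of dead Null NAC libraries. In the same order, Cps1 had 2273, 1968, 2038, 1198, 2619, 2229, 1545 and 2361 CPM. These 2 genes of the first step varied least among the members, with a coefficient of variation of 20.3% and 22.7% against a median of 25.3% over the 13290 genes tested, whose mean level was 1 CPM or more. Otc had 109, 176, 156, 148, 69.9, 125, 124 and 33.3 CPM, and Slc25a15 78.7, 177, 174, 181, 300, 146, 211 and 101. The lowest Otc level was that of the library labelled dead Null NAC lung, while the library labelled dead Null NAC liver, with the same pup group and treatment, was at 124. Arg2 had at most 2.87 CPM and 6 to 29 counts.

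**Figure D1:**
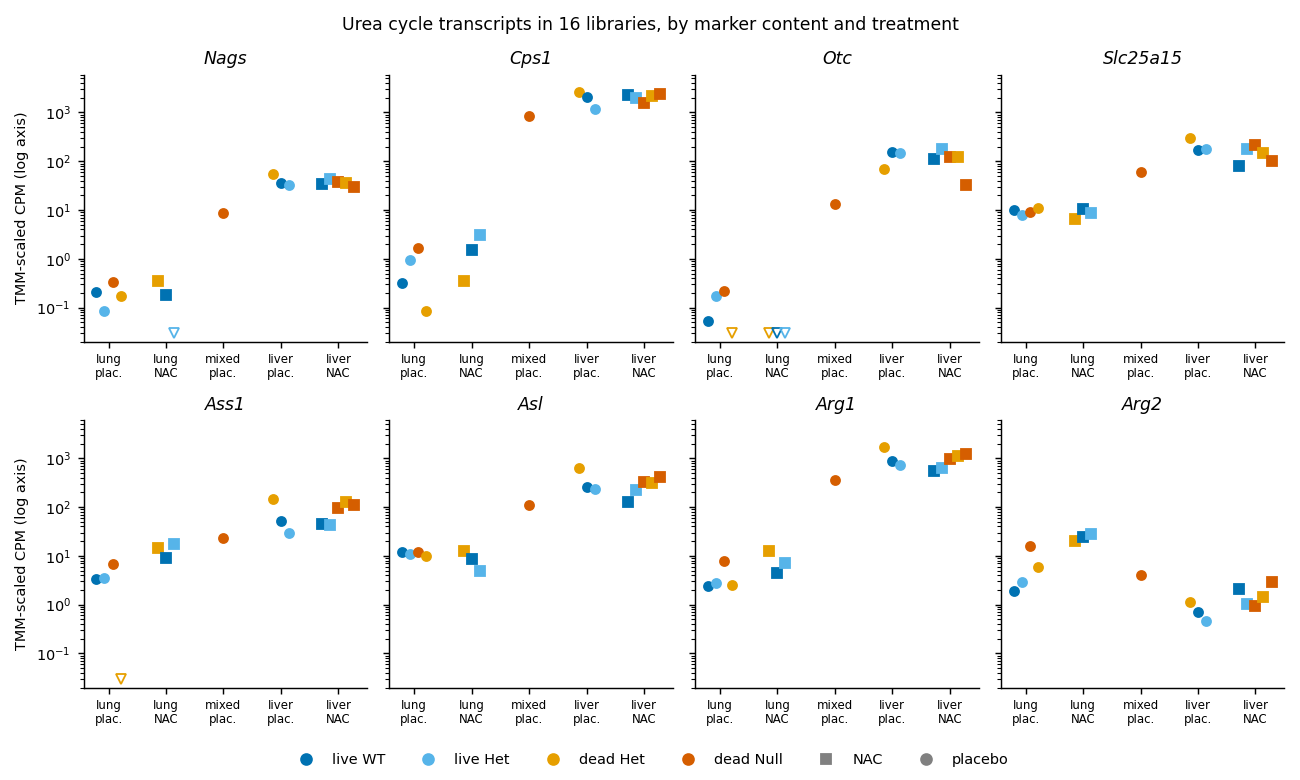
TMM-scaled CPM (log axis) of each urea cycle gene in the 16 libraries, placed by marker content and treatment, with 1 point a library, colour for pup group and open triangles for libraries with 0 counts. Each member but Arg2 is higher in all 8 liver-content libraries than in the other 8, while Arg2 reaches its maximum of 27.6 CPM in a lung-content library and overlaps between contents.

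The rows of the cytosolic enzymes Ass1, Asl and Arg1 had levels that did not overlap between the liver-content libraries of dead and live pups, although none passed edgeR's test, and Ass1 overlapped once Gm5424 was added to it. Ass1 had 44.0 and 50.9 CPM in live WT pups with NAC and placebo and 43.5 and 28.9 in live Het pups, against 125 and 143 in dead Het pups and 95.3 and 111 in the dead Null NAC libraries. All 4 dead libraries were above all 4 live ones, with means of 118 ± 20.4 and 41.8 ± 9.28 CPM (SD, n = 4 each), a ratio of 2.83. Asl had 128, 264, 221 and 239 CPM in live libraries and 305, 627, 320 and 415 in dead ones, in the same order, with a ratio of means of 1.96. Arg1 had 561, 874, 642 and 714 CPM in live libraries and 1113, 1739, 955 and 1242 in dead ones, with a ratio of 1.81. In each case the dead Het placebo library was the highest of the 8. The dead group held 3 NAC libraries and 1 placebo library and the live group 2 of each, and both dead Null libraries had NAC.

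No member passed edgeR's quasi-likelihood test of dead against live in liver-content libraries, which called 1 of 13290 genes (0.00752%), Rab30, named after its value was seen. The log2 fold changes were 1.49 for Ass1 (SE 0.20), 1.13 for Asl (SE 0.23) and 0.96 for Arg1 (SE 0.20), each with an edgeR adjusted p of 0.80, and 588 genes had an unadjusted p under 0.05. DESeq2 with the same design called these 3 members and no other, with adjusted p-values of 1e-05, 0.00928 and 0.00893, and 53 genes in all. Dead libraries lay wholly above live ones for 3 of 8 members and for 1.45% of all genes tested, and wholly below for no member and 1.11% of genes. The same 3 members remained apart with relative log expression scaling, with library size alone and with scaling to the hepatocyte markers, under which 1.43%, 2.13% and 4.36% of genes lay above. Gm5424 overlapped between the groups (941 to 2685 CPM in dead, 723 to 1242 in live), so the separation of Ass1 is that of the small share of counts in its own row. The sum of both rows ranged from 1036 to 2828 CPM in dead and from 752 to 1293 in live pups, with a log2 fold change of 0.78 (SE 0.30, edgeR adjusted p = 0.80). In heterozygous pups alone, with 2 libraries a side, the log2 fold changes were 1.90 for Ass1, 0.90 for Asl and 1.03 for Arg1 (edgeR adjusted p = 0.576 for each).

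Cps1, Nags, Slc25a15 and Arg2 overlapped widely between dead and live pups, with log2 fold changes of 0.20 (SE 0.25), 0.10 (SE 0.22), 0.48 (SE 0.32) and 0.45 (SE 0.50). Otc was the one member with a lower mean in dead pups, 88.0 ± 44.6 against 147 ± 28.2 CPM (SD, n = 4 each), and its log2 fold change of -0.81 (SE 0.47) did not pass the test (edgeR adjusted p = 0.80). Over the 8 members, 7 had a positive fold change, with a median log2 of 0.47 against -0.01 over all genes. Hepatocyte markers overlapped (216580 to 267174 CPM summed in live, 172402 to 293979 in dead), with Alb at a log2 fold change of 0.03 (SE 0.34). Macrophage markers summed to 803 to 1048 CPM in live libraries and 655 to 826 in dead ones, and their part in these differences was not tested.

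**Figure D2:**
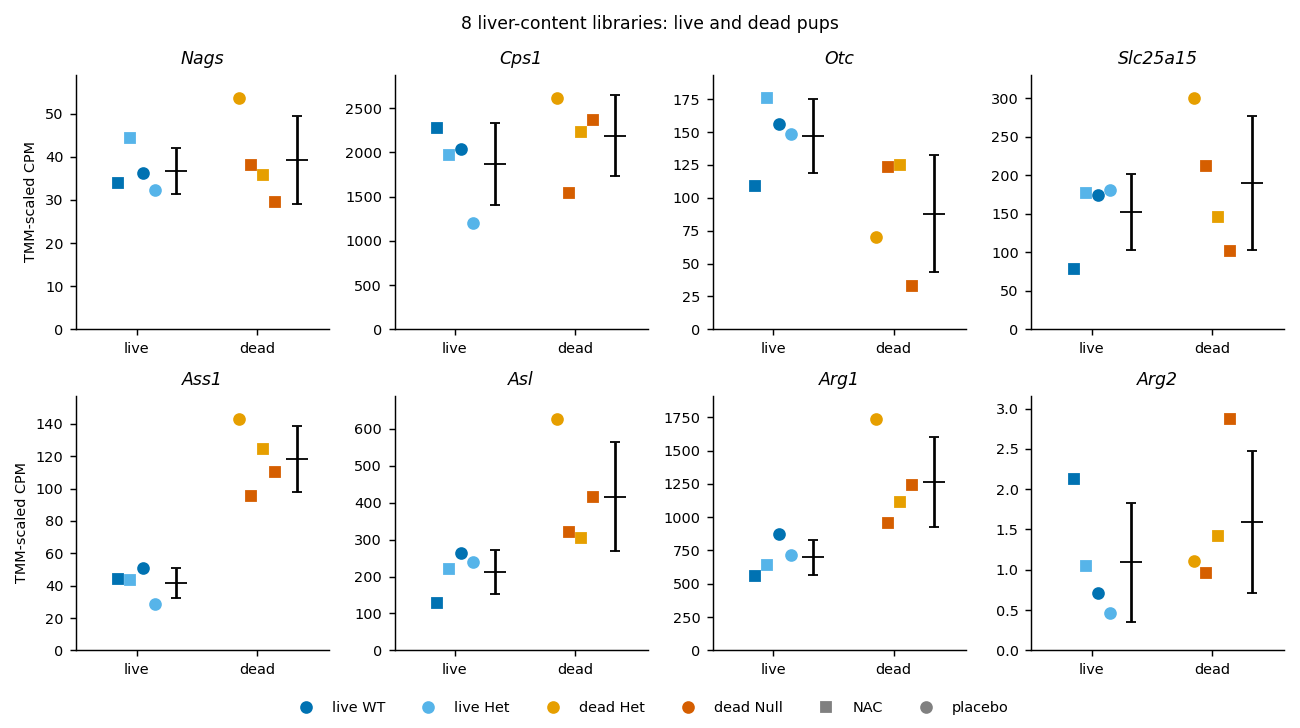
TMM-scaled CPM of the 8 members in the 4 liver-content libraries of live pups and the 4 of dead pups, with 1 point a library (colour for pup group, square for NAC, circle for placebo) and the mean ± SD beside each group. Ass1, Asl and Arg1 lie apart in the 2 groups, and the other 5 members overlap.

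Around the cycle, 49 of 52 listed genes of nitrogen, arginine and amino acid breakdown were tested in liver-content libraries, and none passed for dead against live (27 of 49 positive, median log2 0.05 against -0.01 over all genes). For 3 of the 49 every dead library lay above every live one, against 1.45% of all genes, and they are named here after their values were seen. They were Sds (serine dehydratase, log2 fold change 2.98, SE 0.52), Got1 (cytosolic aspartate aminotransferase, 2.72, SE 0.57) and Oat (ornithine aminotransferase, 1.66, SE 0.30). Got1 had 188, 206, 273 and 132 CPM in live Het NAC, live WT NAC, live WT placebo and live Het placebo libraries, and 2821, 827, 321 and 1392 in dead Het placebo, dead Het NAC and the pair of dead Null NAC libraries. Ddah1 was the single listed gene of the 49 wholly below, against 1.11% of all genes. Of 17 listed hepatic regulators none passed, with Ppargc1a, a fasting coactivator, at 1.05 (SE 0.22) and wholly above, and Prkaca wholly below.

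No member passed the test of NAC against placebo in liver-content libraries (5 NAC, 3 placebo). None of the 13290 genes passed edgeR's quasi-likelihood test (0%), 653 had an unadjusted p under 0.05, and DESeq2 called 28, no member among them. Asl (log2 fold change -0.74, SE 0.26), Slc25a15 (-0.74, SE 0.36) and Arg1 (-0.48, SE 0.22) had negative fold changes, and Arg2 (1.01, SE 0.58), at very few counts, a positive one. Cps1 (0.21, SE 0.28), Otc (0.19, SE 0.51), Ass1 (0.06, SE 0.23) and Nags (-0.07, SE 0.26) were nearer to 0. Within pup groups, NAC over placebo was 0.484 for Asl in live WT and 0.485 in dead Het pups but 0.922 in live Het pups, and for Cps1 it was 1.11, 0.851 and 1.64. The pairs did not share a direction for Cps1. The 9 erythroid markers in the table all had positive fold changes (median log2 1.08), as did all 8 neutrophil markers (median 0.76), none past the test, and their part in the member values was not tested.

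In lung-content libraries the set was partial. Otc had 0 to 2 counts, and 4 of the 7 libraries held none, where 0 counts allow up to 3. Nags had 0 to 4 counts and Cps1 1 to 22, and the 2 genes with a mean under 1 CPM, Otc and Nags, were not tested there. Asl (4.87 to 12.8 CPM) and Slc25a15 (6.46 to 11.1) were present in all 7, at 1.71 to 4.51% and 3.68 to 6.33% of their liver-content medians. Cps1 stood at 0.00397 to 0.144% of its liver-content median in the same libraries and Alb at 0.00727 to 0.110%, with Cps1 above Alb in 4 of the 7. The summed hepatocyte markers stood at 0.0786 to 0.484%, a sum made up mostly of Trf, the transferrin gene. Arg1 was at 0.266 to 1.39% and the sum of Ass1 and Gm5424 at 1.13 to 11.5%. Per kilobase, Arg2 (median 11.3 CPM per kb) was above Ass1 (2.86), Asl (2.26), Arg1 (1.95) and Slc25a15 (1.62), while the sum of Ass1 and Gm5424 reached 39.9.

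Arg2 separated the lung-content libraries by treatment within each pup group that had both. In live WT pups its level was 1.91 CPM without NAC and 24.5 with it, in live Het pups 2.95 and 27.6, and in dead Het pups 5.85 and 20.2. NAC over placebo was 12.9 (95% counting interval 9.06 to 18.7), 9.35 (6.47 to 13.9) and 3.46 (2.64 to 4.59). The remaining placebo library, dead Null, had 16.1 CPM, nearer to the NAC libraries than to the other 3 placebo libraries. The mixed library, also labelled dead Null placebo, had 4.04 CPM. No dead Null NAC library of lung content stands beside them. With pup group in the model the fold change therefore rests on 3 pairs, and Arg2 rose with NAC by a log2 fold change of 2.86 (SE 0.34, edgeR adjusted p = 0.00153). Liver-content libraries had at most 2.87 CPM of Arg2, below every NAC library of lung content.

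The Ass1 rows followed the same order. For live WT, live Het and dead Het pups in turn, Gm5424 had 21.4, 10.2 and 14.8 CPM with placebo and 87.2, 123 and 105 with NAC, and it had 113 in the dead Null placebo library. Its rise had a log2 fold change of 2.79 (SE 0.27, edgeR adjusted p = 0.000669). Ass1 had 3.28, 3.56 and 0 CPM with placebo and 9.15, 17.3 and 14.2 with NAC, and 6.90 in dead Null placebo, a log2 fold change of 2.71 (SE 0.68, edgeR adjusted p = 0.0216). The 0 of the dead Het placebo library stands beside 175 Gm5424 counts in that library. Arg1 had 2.44, 2.78 and 2.54 CPM with placebo and 4.35, 7.10 and 12.7 with NAC, and 7.68 in dead Null placebo, and it also rose (1.51, SE 0.33, edgeR adjusted p = 0.0138).

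Cps1 passed the test too (log2 fold change 1.91, SE 0.51, edgeR adjusted p = 0.0262), on 6, 11 and 1 counts with placebo and 17, 22 and 4 with NAC. Its mean over the lung-content libraries was 1.14 CPM, little above the filter of 1 CPM. NAC libraries averaged 1.64 CPM, the placebo libraries of the same pup groups 0.452, and dead Null placebo had 1.67. Passing the filter was therefore not independent of treatment for Cps1. Alb rose in the same comparison (1.59, SE 0.39, edgeR adjusted p = 0.0208), as did Trf and Fgb, and these were 3 of the 11 hepatocyte markers tested, with Apob and Ttr at negative fold changes that did not pass. In live WT, live Het and dead Het pups in turn, Trf had 259, 211 and 148 CPM with placebo and 623, 585 and 1089 with NAC. All 12 markers together, Trf included, summed to 283, 424 and 186 CPM with placebo and to 748, 791 and 1146 with NAC. The part of these markers in the Cps1 and Arg1 values was not tested. Asl (-0.39, SE 0.29) and Slc25a15 (-0.19, SE 0.25) did not pass. Their pairs did not share a direction, with Asl lower with NAC in live WT and live Het pups and higher in dead Het pups. Of the 6 members tested, 4 rose, Cps1 among them near the filter, and none fell, with 14.4% of all 13659 genes called up and 11.9% called down.

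**Figure D3:**
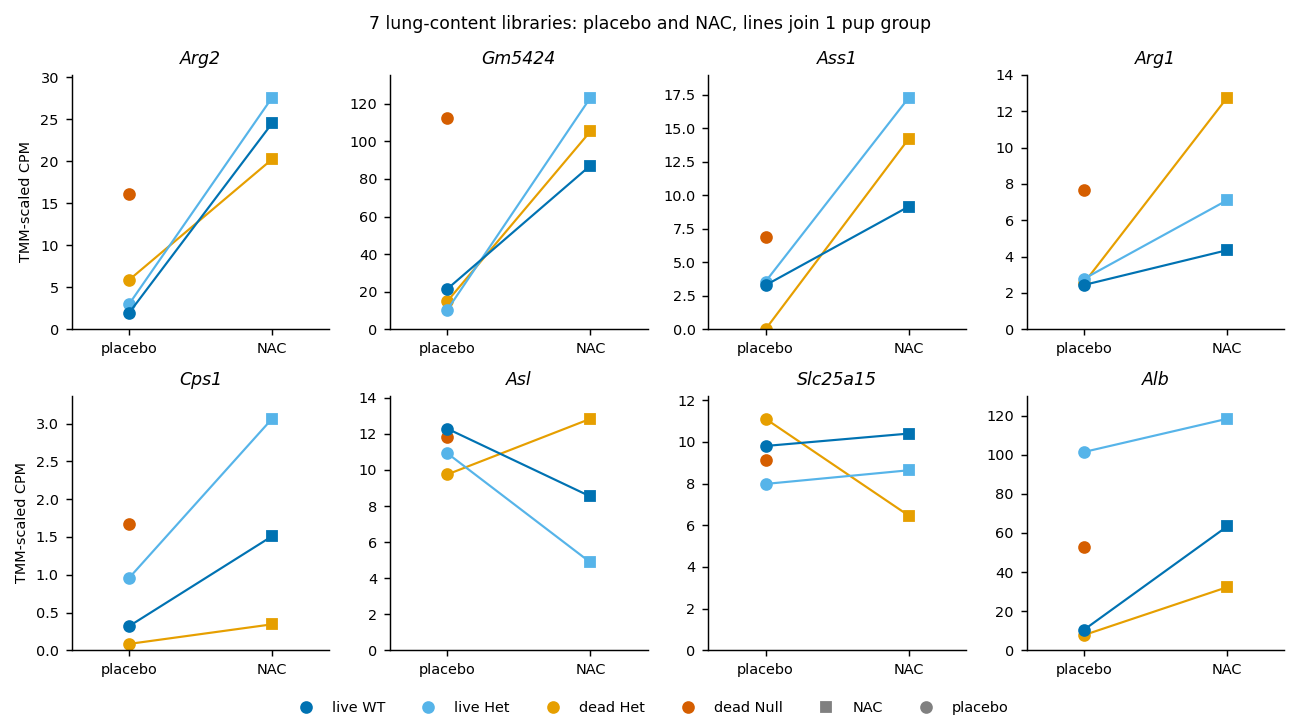
TMM-scaled CPM in the 7 lung-content libraries by treatment, for 6 members, the pseudogene row Gm5424 and Alb, with lines that join the placebo and NAC libraries of 1 pup group. Arg2, Gm5424, Ass1 and Arg1 go up in all 3 pairs, and the dead Null placebo library, which has no NAC partner, lies above the other placebo libraries for these 4 rows.

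These calls depend on the fit and on single libraries to different degrees. Arg2 passed under every alternative tried, with an edgeR or DESeq2 adjusted p of at most 0.0473. Without pup group in the model, Arg2 was the only member called of 6, and the cause was not tested. By DESeq2, Arg1 and Arg2 passed, while Cps1 and Ass1 did not, with adjusted p-values of 0.101 and 0.145. Library size alone moved the median of all genes to a log2 of -0.32 and the calls to 820 up and 2829 down, with Cps1 lost (edgeR adjusted p = 0.0614). Without the live Het placebo or the live Het NAC library Ass1 missed the threshold (edgeR adjusted p = 0.0541 and 0.0551), and Cps1 missed it without either live WT library or without live Het placebo (0.172, 0.189 and 0.109). Without either dead Het library Asl fell past the threshold (log2 fold change -0.81, edgeR adjusted p = 0.040). Cps1 could not be tested without live Het NAC, its highest lung-content library, since its mean then fell under the filter. Each of the 3 pairs holds 1 library at odds with its tissue label, the placebo one in live pups and the NAC one in dead Het pups. No pair is therefore free of such a library.

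With NAC in lung-content libraries, 14.4% of all 13659 genes were called up and 11.9% down, and the counts of each list stand beside these shares. The listed genes around the cycle moved both ways, with 8 of 38 tested up and 7 down. Glul, glutamine synthetase, which binds ammonia without the cycle, rose by a log2 of 2.33 (SE 0.22), from 164, 151 and 226 CPM to 860, 1107 and 743, and was at 569 in dead Null placebo. The amino acid carriers Slc38a4 (1.97), Slc38a2 (0.93), Slc3a2 (0.79) and the arginine carrier Slc7a1 (0.75) rose, as did Sat1 (0.86), of polyamine breakdown. Azin2 (-1.43), Ddah1 (-1.05), Slc7a7 (-1.03) and Aldh18a1 (-1.01) fell, of which Ddah1 degrades methylated arginines that block nitric oxide synthases and Aldh18a1 serves proline and ornithine synthesis. Glud1 and Tat also rose, and Ddah2, Gamt and Pycr1 fell, with Tat (mean 1.47 CPM) and Pycr1 (1.03) near the filter of 1 CPM. Of 11 regulators tested 6 rose and none fell, led by Klf15 (2.78, SE 0.29), a factor known to control amino acid breakdown, and Cebpd (2.36, SE 0.15). Neutrophil markers (5 of 7 up, 192 to 261 CPM summed with NAC, 105 to 145 with placebo), erythroid markers (4 of 8 up) and endothelial markers (3 of 8 up) moved in the same comparison, and their part was not tested. Cd68 and Mrc1 of the macrophage list fell and Chil3 rose.

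**Figure D4:**
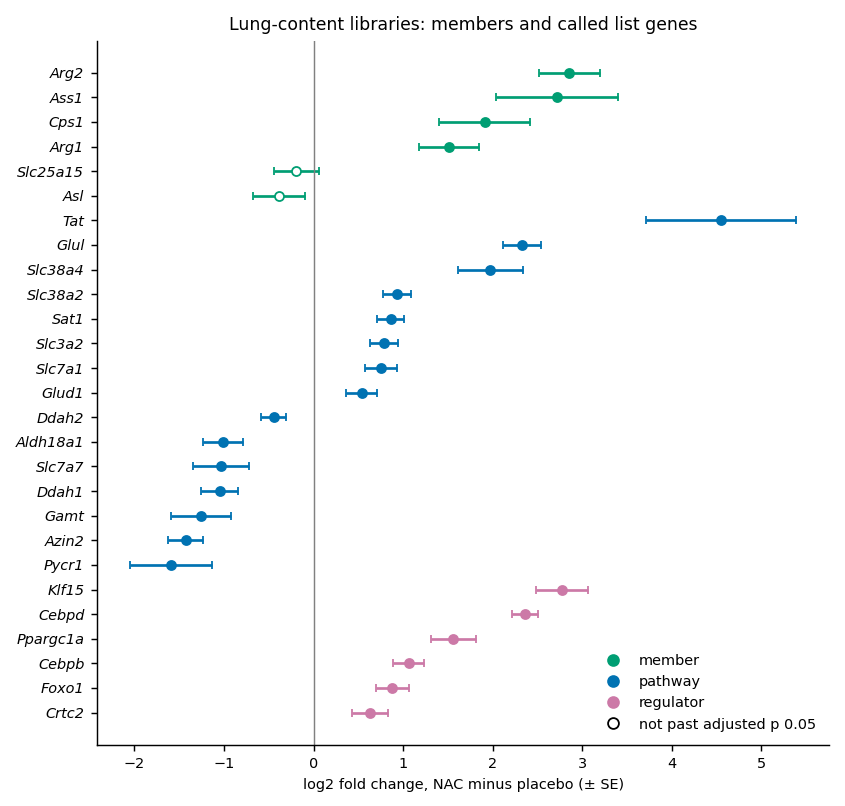
Log2 fold change ± SE for NAC minus placebo in the 7 lung-content libraries, for the 6 members tested (green), the 15 called genes of the nitrogen and arginine list (blue) and the 6 called regulators (pink), with open points for values that did not pass. Arg2 at 2.86 is the highest member, and Asl and Slc25a15 lie near 0.

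Dead and live pups did not differ by the test for any member in lung-content libraries, where 7 of 13659 genes were called (0.0512%), with 1121 at an unadjusted p under 0.05. Arg2 (log2 fold change 1.38, SE 0.34, edgeR adjusted p = 0.205) and Arg1 (1.22, SE 0.31, edgeR adjusted p = 0.237) had the largest fold changes of the members, and Ass1 was at 0.28 (SE 0.61). DESeq2 called Arg2 (adjusted p = 0.00897) and 151 genes. Leaving out either dead Het library left a single dead Het library, and the members that edgeR called then changed. Over the libraries left out, the log2 fold change ranged from 0.75 to 1.54 for Arg1 and from 1.00 to 2.03 for Arg2. Without dead Het NAC, Ass1 turned negative (-3.67). The dead Het library left then held 0 Ass1 counts beside 175 of Gm5424, so this value has no reliable size. Genotype was compared in live and in dead pups. Live Het minus live WT called 0% of genes in liver-content libraries and 0% in lung-content libraries (212 and 315 genes at an unadjusted p under 0.05, 6 and 6 called by DESeq2), and no member by either tool. Dead Null minus dead Het called 0% in liver-content libraries (1235 at an unadjusted p under 0.05, 234 called by DESeq2) and 0.6% in lung-content libraries, no member in either by edgeR, while DESeq2 called Arg2 in the latter (adjusted p = 0.0345). There, the Null group is the single placebo library, and Gm5424 had a log2 fold change of 2.90 (SE 0.39). Of the members, Cps1 had 4.15 (SE 0.85), Ass1 2.28 (SE 1.08), Arg2 2.01 (SE 0.49) and Arg1 1.09 (SE 0.51). Asl (-0.16) and Slc25a15 (-0.02) were negative. Cps1 rests on 15 counts in Null and on 1 and 4 in dead Het placebo and NAC. Of 11 hepatocyte markers tested, 10 were positive, with a median log2 of 1.79, and their part was not tested.

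The mixed library, labelled dead Null placebo lung, held 11 of the 12 hepatocyte markers at 7.53 to 16.2% of their liver-content medians and Hnf4a at 18.2%, and fetal Afp at 7.72%. The members stood higher in it. Arg1 was at 40.2% (367 CPM), Cps1 at 38.9% (830 CPM), Asl at 38.5%, Slc25a15 at 34.7%, Ass1 at 31.5%, Nags at 24.5% and Gm5424 at 59.3%. Otc, at 10.7% (13.3 CPM), lay among the hepatocyte markers. Over 334 genes restricted to liver content the median was 14.6%, with 6.08% and 31.6% at the 10th and 90th percentiles, and 16 of them were above Cps1. Arg2 had 4.04 CPM, between the medians of liver-content (1.08) and lung-content (16.1) libraries. It lay within the 1.91 to 5.85 CPM of the 3 lower lung-content placebo libraries. The lung-content median is that of the other library labelled dead Null placebo. Sftpc had 4829 CPM in the mixed library and 6053 in that one. In the same order, Glul had 233 and 569 CPM, Klf15 43.6 and 86.4, and Cebpd 27.3 and 118, while Arg1 had 367 and 7.68. The cause was not tested. The mixed library is 1 library and has no replicate.

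**Figure D5:**
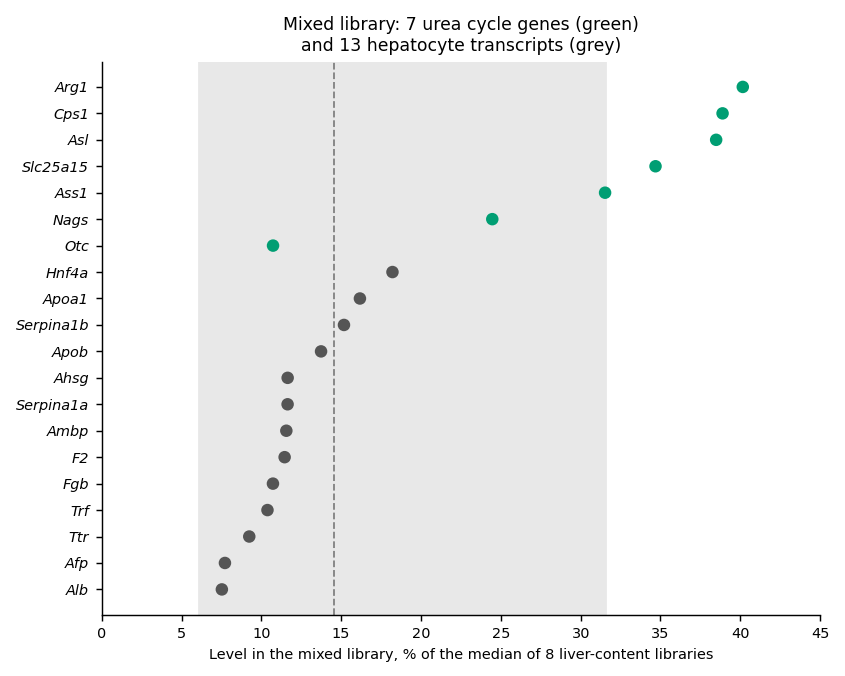
Level of 7 members (green; Arg2 left out) and 13 hepatocyte transcripts (grey) in the mixed library, as % of the median of the 8 liver-content libraries, with the median (dashed) and the 10th to 90th percentile (shaded) of 334 liver-restricted genes. All members but Otc lie above the hepatocyte transcripts.

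By labels alone, the study's comparison sets the NAC library of a pup group against its placebo library within a labelled tissue. In the pairs labelled liver, 7 members were at least 2-fold higher with NAC and 0 lower in live WT pups, 7 and 1 in live Het, 1 and 7 in dead Het, and 7 and 1 in dead Null pups, where 49.6%, 50%, 51.8% and 55.8% of all genes passed this fold either way. In the pairs labelled lung the counts were 1 and 7 in live WT, 1 and 6 in live Het, 7 and 1 in dead Het and 6 and 0 in dead Null pups, with 55.8%, 60.5%, 51.1% and 46.9% of genes past it. Each pair sets a library of one content against one of another, and the members followed the content. Arg2 went against the other members in 6 of the 8 pairs, and in the live WT pair labelled liver and the dead Null pair labelled lung it did not reach 2-fold. These folds have no replicate check.

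Among the 8 liver-content libraries the members did not vary as 1 set. Asl and Arg1 varied together (Pearson r of log2(CPM + 1) = 0.96) and Ass1 with Arg1 (0.87), while Otc had a negative r with Cps1 (-0.51), Ass1 (-0.60), Asl (-0.55) and Arg1 (-0.62). The genes most like Otc were Acnat1 (0.996), Slc17a3 (0.992) and Rtp3 (0.989), those most like Arg1 were Kif21a (0.97), Asl (0.96) and Rab30 (0.96), and the gene most like Ass1 was Ppargc1a (0.94). Wdtc1 was most like Cps1 (0.97), Ctsl most like Asl (0.97), Pros1 most like Nags (0.97), Acvr2a most like Slc25a15 (0.97) and Nelfb most like Arg2 (0.98). These are descriptions over 8 libraries that share scaling and live or dead state, and with so few libraries high values are easily reached.

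Promoter windows from RefSeq (GRCm38.p6, 250 bases upstream of the start) were on hand for 4 of the 8 members, Ass1, Nags, Otc and Slc25a15. None held TTGCNNAA (a C/EBP motif, in 9.56% of all 32851 windows), CAAAGTCCA (an HNF4 motif, 0.384%) or the short motif TGACG of CREB (17.8%), on either strand. Nor did any hold AGAACA, a short motif of the glucocorticoid receptor (16.1%), the TATA box motif TATAAA (12.4%) or CCAAT (33.8%). This says only that these letters are not in these windows.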

How the data were processed

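The table deposited by the authors holds 1 estimated count for each gene symbol and library, with no normalization and with values that need not be whole. Adapters were trimmed, reads were aligned to the Ensembl mouse genome build GRCm38 with the Omicsoft Sequence Aligner, and uniquely mapped reads were quantified. The annotation release is not given in the sources used here. The fits had been written for counts, and the estimated counts were rounded first. In R 4.3.3, edgeR 4.0.16 (TMM over 16 libraries, quasi-likelihood test, a mean of at least 1 CPM, Benjamini-Hochberg adjusted p under 0.05) was fitted to all genes within each marker content, with pup group and treatment in the model. Labelled pairs have 1 library a side and give folds only (edgeR's exact test at a coefficient of variation of 0.2, prior count 0.125), with 3 counts as the floor. Intervals of ratios cover counting error only. DESeq2 1.42.0, other scalings, no filter, other models and each library left out were tried, and the sum of Ass1 and Gm5424 was added after seeing the data. The fits were run on simulated counts with a known change with NAC, no pup group differences and a fixed spread, to check directions. That run does not check the p-values given here. Positions are from GENCODE M21, aligned with Biopython 1.88 under Python 3.11.15. The members, lists and motifs were chosen with earlier results of these data known. List genes are named if they passed, at most 10 a comparison with a mean of at least 5 CPM, and with no value otherwise, and for each member up to 3 genes of highest r with a mean of at least 10 CPM.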

Additional observations from a re-analysis of the deposited data

Results flagged for a closer look

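In the pairs labelled lung, each of the 8 members had 1 direction with NAC in both live groups and the opposite one in both dead groups, with Arg2 opposite to the other 7 members throughout, a difference that was not tested. The mean log2 fold change of the live pairs minus that of the dead pairs was -8.73 for Asl, -12.41 for Arg1, -6.45 for Slc25a15 and 6.73 for Arg2. For Cps1, Otc, Ass1 and Nags at least 1 of the libraries was at or under 3 counts, so only the direction in the 4 pairs is given. The live pairs set a lung-content NAC library against a liver-content placebo library, and the dead pairs set a liver-content NAC library against a lung-content or the mixed placebo library. In the 15 sets tested by Dixon's test (each member in each content, without Otc in lung-content libraries), no highest or lowest library stood apart.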

How the results depend on the processing

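Of the values of single members under alternatives other than leaving out a library, 205 kept direction and side of the threshold, 6 lost a call, 7 gained one and 5 changed sign. DESeq2 called 28, 53, 6 and 234 genes in liver-content libraries for NAC, dead against live, live Het against WT and dead Null against Het. Of these, 3 in the second comparison were members. In lung-content libraries it called 151, 6 and 209 genes for the last 3 comparisons, with 1, 0 and 1 members. For NAC there, its results are given above by member. Dead against live in liver-content libraries fell from 1 to 0 genes with relative log expression scaling, with TMM within content, without genotype and in heterozygous pups alone. In lung-content libraries it fell from 7 to 0 with relative log expression scaling, library size alone, without genotype and in heterozygous pups alone, and was 194 with no filter. Dead Null against Het there was 44, 0 and 286 with relative log expression scaling, library size alone and no filter, and live Het against WT was 12 with no filter, which called 1 member for dead against live and 2 for Null against Het. Without pup group, NAC called 2317 genes and 1 member in lung-content libraries. Summing the pair of dead Null NAC libraries gave 4 genes for NAC and 4 for dead against live. By marker medians 0 libraries were mixed. Signs turned in liver-content NAC for Nags (0.052 with hepatocyte scaling), Otc (-0.14 without pup group) and Ass1 (-0.13 summed with Gm5424), and in lung-content dead against live for Ass1 (-0.082 with DESeq2, -1.08 in heterozygous pups). The cause was not tested.

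With each library left out, genes called ranged from 0 to 4 (NAC), 0 to 16 (dead against live) and 0 to 1 (Null against Het) in liver-content libraries, and from 1040 to 4182 (NAC), 4 to 362 (dead against live), 0 to 26 (live Het against WT) and 87 to 678 (Null against Het) in lung-content libraries. The extremes 16, 1040, 362 and 678 came without dead Null NAC labelled liver, live Het placebo, dead Het placebo and dead Het placebo. Members called in lung-content libraries ranged from 2 to 5 for NAC, 0 to 2 for dead against live and 0 to 2 for Null against Het. Log2 fold changes that changed sign ranged in liver-content NAC from -0.038 to 0.44 (Cps1), -0.13 to 0.54 (Otc), -0.20 to 0.19 (Ass1) and -0.34 to 0.18 (Nags), in liver-content dead against live from -0.027 to 0.45 (Cps1), -0.16 to 0.37 (Nags) and -0.051 to 0.74 (Arg2), and in lung-content libraries from -0.35 to 0.098 (Slc25a15, NAC) and -3.67 to 0.89 (Ass1, dead against live). The -3.67 of Ass1 came without dead Het NAC, where the dead Het library left held 0 Ass1 counts, so it has no reliable size. A lone library in a group is assumed to vary like the others. Libraries were paired by pup group, which was in the model, and not by replicate number, which the labels do not give.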
